A study of Mus musculus with 6 samples.

Results

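Sfrp1, Tgfbr3, Htra1 and Igfbp2 encode proteins that bind or cleave Wnt, transforming growth factor beta (TGF-beta) and insulin-like growth factor (IGF) signals outside the cell. They were taken by gene name from the deposited comparison of microglial Piezo1 knockout and control 5×FAD mice, and all 4 were found among its 466 genes. The knockout group (Piezo1MGKO; FAD) held 3 samples from male mice with the Cx3cr1CreER-EYFP allele, floxed Piezo1 and the 5×FAD transgenes. The control group (Piezo1fl/fl; FAD) held 3 samples from male littermates with floxed Piezo1 and the 5×FAD transgenes, for which no Cre allele was named. Both groups were of the C57BL/6N strain and were given tamoxifen, which activates the CreER recombinase, in 4 daily injections of 20 mg/kg that began at an age of 4.5 weeks. Piezo1 encodes a mechanically gated cation channel, and the comparison asked which transcripts differ in microglia, the resident macrophages of the brain, when the channel is deleted in them. Cre is driven from the Cx3cr1 locus, which border macrophages of the brain also use. The 5×FAD transgenes, which carry familial Alzheimer's disease mutations, are driven in neurons by a Thy1 promoter. The age at isolation was given only as adult, and the number of mice per sample was not given, so the spread behind each p-value is that between samples and may be partly technical.

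Wnt, TGF-beta and IGF ligands act on cell surface receptors, and secreted or membrane-bound partners set how much ligand reaches them. In brain, genes of this kind are best known from astrocytes, choroid plexus epithelium, the fibroblasts of the meninges and vessel walls, and mural cells. Microglia respond to TGF-beta through its signalling receptors, which is required for their homeostatic state. SFRP1 is a secreted protein with a frizzled-like cysteine-rich domain that binds Wnt ligands, and it also inhibits the protease ADAM10. TGFBR3, or betaglycan, is a membrane proteoglycan that presents TGF-beta to its signalling receptors and, once shed, sequesters it. HTRA1 is a secreted serine protease that acts on matrix proteins and on TGF-beta family signalling. IGFBP2 is a secreted carrier that binds IGFs and is made abundantly by choroid plexus.

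All 4 genes were lower on average in the knockout, and the 3 controls disagreed about how much of each transcript there was. All 4 fell in the authors' deposited table, as did 410 of its 466 genes. Of the 4, Tgfbr3 alone had an adjusted p under 0.05 there, against 3.00% of the table. Tgfbr3 and Sfrp1 were at most 4.92 normalised reads in any knockout sample and at least 27.2 in controls 2 and 3. Htra1 was abundant in control 3 alone, and Igfbp2 in control 2 above all. Expression is given as normalised reads, which are gene counts divided by a size factor of each sample.

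Promoter windows were matched for 2 of the 4 genes, Htra1 and Igfbp2, and not for Sfrp1 and Tgfbr3. The matched ones are shown because the promoter source used here held no window for Sfrp1 or Tgfbr3. Both are RefSeq windows of GRCm38.p6 on the plus strand, from 250 bases before to 50 bases after the annotated start, and the capitals mark CpG dinucleotides. The Htra1 window is chr7:130935953-130936252 and the Igfbp2 window is chr1:72824230-72824529.
Htra1: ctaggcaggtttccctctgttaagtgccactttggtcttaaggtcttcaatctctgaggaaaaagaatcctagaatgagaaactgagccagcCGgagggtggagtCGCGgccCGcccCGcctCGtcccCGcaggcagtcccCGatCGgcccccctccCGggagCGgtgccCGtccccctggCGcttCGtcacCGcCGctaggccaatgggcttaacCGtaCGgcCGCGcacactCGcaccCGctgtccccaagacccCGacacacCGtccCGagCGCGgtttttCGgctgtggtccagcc
Igfbp2: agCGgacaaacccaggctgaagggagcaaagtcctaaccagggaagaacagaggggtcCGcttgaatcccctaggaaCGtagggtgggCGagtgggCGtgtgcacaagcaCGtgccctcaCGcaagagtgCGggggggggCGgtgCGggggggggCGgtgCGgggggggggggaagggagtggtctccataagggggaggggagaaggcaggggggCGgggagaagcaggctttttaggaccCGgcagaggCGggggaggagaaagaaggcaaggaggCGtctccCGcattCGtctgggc
The Htra1 window held 28 CpG dinucleotides and 65% G or C, and the Igfbp2 window 18 and 67%, against medians of 7 and 52.7% over the 32851 mouse promoters in the same source. The TCF/LEF letters CTTTGA, the SMAD palindrome GTCTAGAC and the TEAD letters CATTCC, searched on both strands, were in neither window. They were present in 16.0%, 0.213% and 14.7% of all promoters in that order. A second Igfbp2 window, at chr1:72825137-72825436, held none of them either, and had 14 CpG dinucleotides and 57.3% G or C. No match says only that these letters are not in these windows.

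Sfrp1 (ENSMUSG00000031548) lies on chromosome 8 at 23411502 to 23449632 on the plus strand of GRCm38 and has 1 annotated transcript of 3 exons. It had 0, 0 and 1.01 normalised reads in knockouts 1, 2 and 3, against 2.94, 27.2 and 46.0 in controls 1, 2 and 3. The groups did not overlap, but the nearest samples of the groups were 1 read in knockout 3 and 3 reads in control 1. In all, 1 read was recovered from the knockout and 78 from the controls, a control-over-knockout ratio of 75.8 with an exact 95% counting interval of 13.2 to 3031. Counting intervals here cover counting error only and not the spread between samples. For Sfrp1 the authors' deposited table gave a log2 fold change of -6.14 (adjusted p = 0.0654). limma on log2(value + 1) gave -3.78 (SE 1.01, 95% interval -6.03 to -1.53, adjusted p = 0.0533), a scale that understates the change of a gene with so few reads.

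Tgfbr3 (ENSMUSG00000029287) lies on chromosome 5 at 107106570 to 107289629 on the minus strand, and its principal transcript has 17 exons. It had 4.92, 1.02 and 2.02 normalised reads in knockouts 1, 2 and 3, against 8.83, 73.7 and 49.9 in controls 1, 2 and 3. Every control was above every knockout sample, with control 1 closest to them at 9 reads against 5 in knockout 1. The knockout mean was 2.65 ± 2.02 and the control mean 44.1 ± 32.8 (SD, n = 3 each), which is 16.6-fold lower in the knockout. Counting error alone gave that ratio an interval of 8.15 to 39.0. Tgfbr3 was the one gene of the 4 that passed an adjusted p of 0.05 by the authors' own test: in the authors' deposited table its log2 value fell by 4.05 (adjusted p = 0.0170). In limma its log2 fold change was -3.34 (SE 0.93, 95% interval -5.42 to -1.26, adjusted p = 0.0533).

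Htra1 (ENSMUSG00000006205) lies on chromosome 7 at 130936111 to 130985660 on the plus strand, with 9 exons in its principal transcript. It had 2.95, 6.13 and 0 normalised reads in knockouts 1, 2 and 3, against 0.981, 9.70 and 87.1 in controls 1, 2 and 3. The groups overlapped: control 1, with 1 read, was below knockouts 1 and 2. Control 3 held 89.0% of the 100 control reads (95% Wilson interval 81.4% to 93.7%). The knockout mean was 3.03 ± 3.06 and the control mean 32.6 ± 47.4 (SD, n = 3 each), a 10.8-fold lower mean that became 1.77-fold without control 3. The limma log2 fold change was -2.02 (SE 1.34, 95% interval -5.02 to 0.98, adjusted p = 0.185), and it was -0.60 without control 3. For Htra1 the authors' deposited table gave -3.43 (adjusted p = 0.801).

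Igfbp2 (ENSMUSG00000039323) lies on chromosome 1 at 72824503 to 72852474 on the plus strand, with 4 exons in its principal transcript. It was the most abundant of the 4, ranked 17 of 466 by mean. It had 48.2, 28.6 and 9.11 normalised reads in knockouts 1, 2 and 3, against 77.5, 364 and 29.4 in controls 1, 2 and 3. Control 3 lay below knockout 1 and just above knockout 2, so the groups overlapped. Control 2 held 77.5% of the 484 control reads (95% Wilson interval 73.5% to 81.0%). The knockout mean was 28.6 ± 19.5 and the control mean 157 ± 181 (SD, n = 3 each), a 5.48-fold lower mean that became 1.87-fold without control 2. The limma log2 fold change was -1.96 (SE 0.98, 95% interval -4.17 to 0.24, adjusted p = 0.115), and it was -0.99 without control 2. For Igfbp2 the authors' deposited table gave -2.45 (adjusted p = 1.00).

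**Figure D1:**
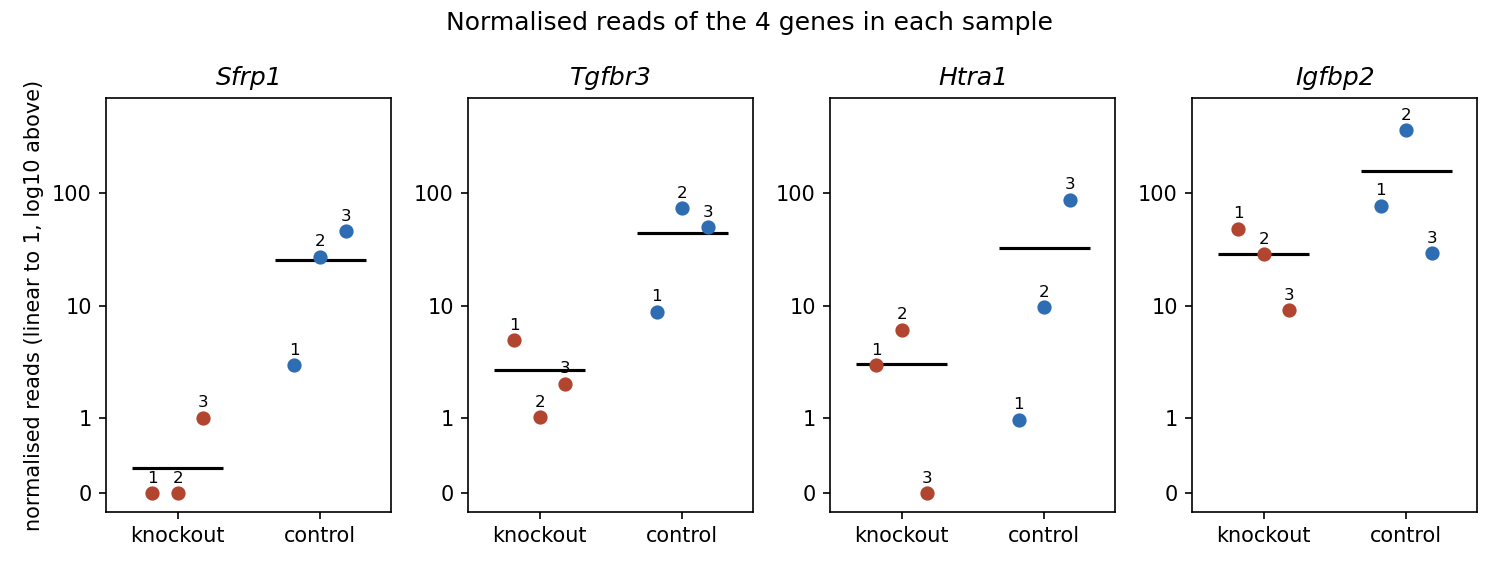
Normalised reads (vertical axis, linear up to 1 and log10 above) of Sfrp1, Tgfbr3, Htra1 and Igfbp2 in the 3 knockout and the 3 control samples. Points are samples with their replicate numbers and bars are group means. The groups do not overlap for Sfrp1 and Tgfbr3, while control 1 of Htra1 (0.981) and control 3 of Igfbp2 (29.4) lie among the knockout samples. Groups that do not overlap, with the knockout lower, are seen for 45.3% of the table.

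Against the whole table, the 4 genes gave counts that must be read with its selection in view. Every one of its 466 genes had an unadjusted p under 0.05 and at least a 2-fold difference in the authors' comparison, and 410 were lower in the knockout. The authors' adjusted p called 1 of the 4 genes, against 3.00% of the table. Groups that did not overlap, with the knockout lower, were seen for 2 of the 4, against 45.3% of the table. limma called 0 of the 4 and 0.00% of the table at an adjusted p of 0.05, and 2 of the 4 had an unadjusted p under 0.05, against 52.6% of the table. edgeR on the recovered reads also called 0 of the 4 and 0.00% of the table, with all 4 at an unadjusted p under 0.05, against 52.8% of the table. DESeq2 on the same reads called Sfrp1 (adjusted p = 0.0134) and Tgfbr3 (adjusted p = 0.0125), against 10.5% of the table. An exact two-sided permutation test over samples gave p = 0.1 for Sfrp1 and for Tgfbr3, which is the smallest that 3 against 3 samples allow. The same exact permutation test gave p = 0.4 for Htra1 and p = 0.2 for Igfbp2. The median limma log2 fold change was -2.68 over the 4 genes and -1.99 over the table. A peak in control 2 or 3 was common in the table: of the 410 genes on the lower side, control 3 held the top value of the 6 samples for 54.6%, control 2 for 42.2% and control 1 for 3.17%.

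The 4 genes depended to different degrees on single libraries. Sfrp1 ranged from -4.85 to -3.06 on the limma log2 scale when any 1 library was left out, and Tgfbr3 from -4.22 to -2.76. Both passed an adjusted p of 0.05 without control 1 (adjusted p = 0.0324 for each), the control closest to the knockout, in a fit that called 42.1% of the table. Htra1 ranged from -3.34 to -0.60 and Igfbp2 from -2.79 to -0.99, and neither passed in any of these fits. With control 1 as the one control left, Sfrp1 stood at -1.64 (95% interval -3.44 to 0.16), Tgfbr3 at -1.57 (-4.61 to 1.46) and Igfbp2 at -1.68 (-5.31 to 1.95). Htra1 then changed direction, at 0.62 (-4.00 to 5.23). That fit takes the spread from the knockout samples alone and assumes that the lone control varies like them.

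**Figure D2:**
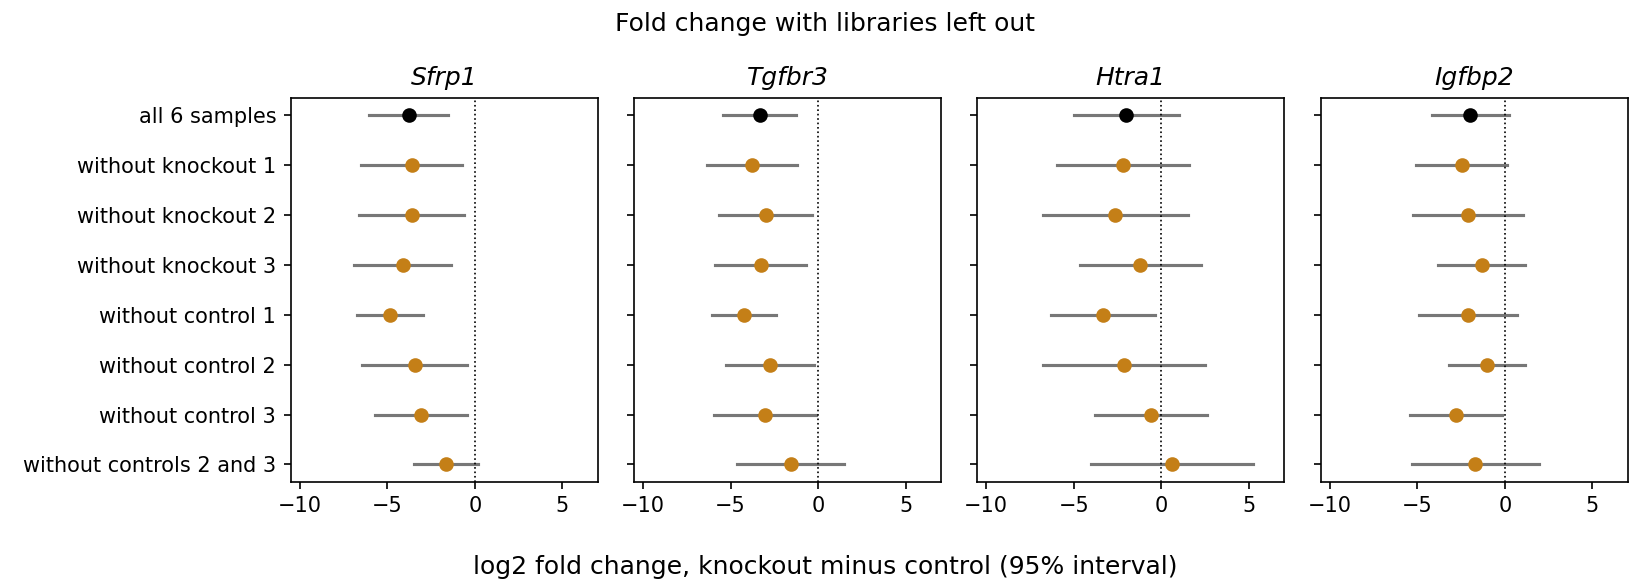
limma log2 fold change (knockout minus control, horizontal axis, with 95% intervals) of each gene in all 6 samples and with the named libraries left out. Sfrp1 and Tgfbr3 keep intervals below 0 whenever 1 library is left out, whereas Htra1 moves to -0.60 without control 3 and Igfbp2 to -0.99 without control 2.

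Levels of different genes were compared per kilobase of the gene length in the deposited table. In controls, Igfbp2 had 84.9 ± 97.9 normalised reads per kilobase, Htra1 11.3 ± 16.5, Tgfbr3 6.75 ± 5.01 and Sfrp1 5.80 ± 4.94 (SD, n = 3). In the knockout the order was the same, with 15.5 ± 10.6 for Igfbp2, 1.05 ± 1.06 for Htra1, 0.405 ± 0.309 for Tgfbr3 and 0.0771 ± 0.134 for Sfrp1 (SD, n = 3). In controls each step in this order was smaller than the larger SD of its neighbours. In the knockout that held for Htra1 and Tgfbr3 only, and the steps above and below them were larger than those SDs. The order changed between controls. In control 2 the levels per kilobase were 197 for Igfbp2, 11.3 for Tgfbr3, 6.21 for Sfrp1 and 3.37 for Htra1, whereas in control 3 Htra1 was highest at 30.2, above Igfbp2 at 15.9, Sfrp1 at 10.5 and Tgfbr3 at 7.62.

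Across the 6 samples the 4 genes were alike to different degrees. The Pearson correlation of log2(value + 1) was 0.94 between Sfrp1 and Tgfbr3, 0.71 between Sfrp1 and Htra1, and 0.66 between Tgfbr3 and Htra1 (n = 6 samples that share the group difference, given as a description). For Igfbp2 it was 0.67 with Tgfbr3, 0.45 with Sfrp1 and 0.22 with Htra1. With group means removed it was 0.77 between Sfrp1 and Tgfbr3, 0.65 between Sfrp1 and Htra1, and 0.54 between Tgfbr3 and Htra1. For Igfbp2 it was then 0.34 with Tgfbr3, -0.20 with Sfrp1 and -0.12 with Htra1. Among protein-coding genes of the table with a mean of at least 10 normalised reads, those most like Sfrp1 were Lamb1, a laminin chain gene (r = 0.99), Gpx8 (0.98), the matrix protein gene Prelp (0.97) and the keratin gene Krt18 (0.97). Those most like Tgfbr3 were Prelp (0.98), the metalloreductase gene Steap2 (0.97), the small heat shock protein gene Cryab (0.96) and Gpx8 (0.95). Those most like Htra1 were the keratin gene Krt8 (r = 0.996), Lhfp (0.98), the galectin gene Lgals1 (0.97) and Igfbp7 (0.97). Those most like Igfbp2 included Tspyl4 (0.99), the calcium pump gene Atp2b3 (0.98) and the sulfate transporter gene Slc13a4 (0.98). Slc13a4 had 13.8, 6.13 and 3.04 normalised reads in knockouts 1, 2 and 3, against 16.7, 89.2 and 4.89 in controls 1, 2 and 3. Igfbp7 had 2.95, 8.17 and 0 normalised reads in knockouts 1, 2 and 3, against 4.91, 34.9 and 385 in controls 1, 2 and 3. Slc13a4 was highest in control 2, as Igfbp2 was, and Igfbp7 in control 3, as Htra1 was. Both were picked from 215 eligible genes for their correlation over these same 6 samples. A shared peak follows from that choice and is not a separate result.

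Markers of several other cell types were highest in control 2 or 3, as 42.2% and 54.6% of the lower genes of the table were. In bulk RNA, fewer cells of a type and less RNA per cell cannot be told apart. Of 16 choroid plexus and ependymal markers, 9 were in the table. All 9 were lower, as were 410 of its 466 genes, and all were highest in control 2. Their summed level ranged from 594 to 2054 normalised reads in the knockout and from 369 to 19374 in controls. Most of that sum was Ttr, the transthyretin gene. Without it control 2 still held 76.4% of the control reads of the list, against 77.5% for Igfbp2. For single genes of the list, control 2 held from 68.3% (Foxj1) to 88.4% (Otx2) of the control reads. Control 3 held 9.78% of the list's control reads without Ttr and 6.20% for Igfbp2. Of 16 fibroblast markers, 5 were in the table (Ogn, Fmod, Col6a1, Apod and Prelp), all highest in control 3, with summed levels of 4.05 to 5.90 normalised reads in the knockout and 23.5 to 307 in controls. Control 3 held 71.9% of their control reads, against 89.0% for Htra1, 60.3% for Sfrp1 and 37.5% for Tgfbr3. Col6a1 gave 150 of the 314 reads of the fibroblast list in control 3. For single genes of that list, control 3 held from 56.0% (Prelp) to 85.2% (Col6a1) of the control reads. The defining fibroblast markers Col1a1, Col1a2, Dcn, Lum and Pdgfra were not in the table and were not analysed here. Neuron markers (7 of 16 in the table) summed to 12.1 to 68.4 normalised reads in the knockout and 75.5 to 796 in controls, with 75.8% of the control reads in control 3. Thy1 was the most abundant of them, at 542 normalised reads in control 3 and at most 42.7 in any other sample. It gave 554 of the 813 reads of the neuron list in control 3, so it weighs heavily in that share. Control 3 held 89.9% of the control reads of Thy1. For the other listed neuron genes control 3 held from 33.9% (Grin1) to 77.4% (Tubb3) of the control reads.

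**Figure D3:**
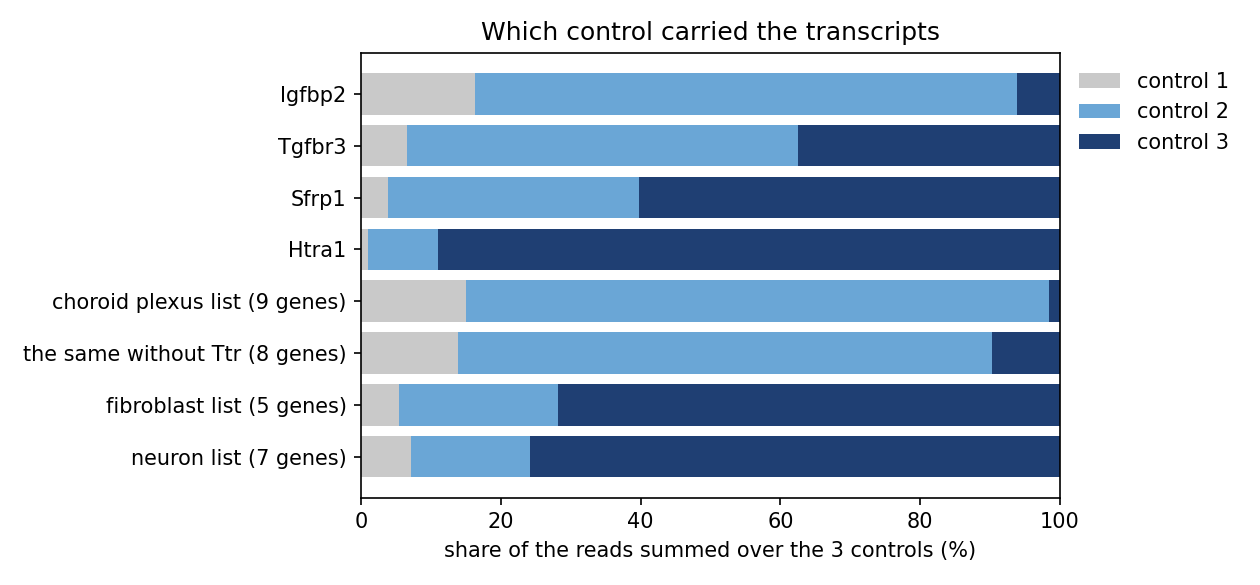
Share (%, horizontal axis) of the reads summed over the 3 controls that came from control 1, 2 or 3, for the 4 genes and for listed markers of other cell types. Control 2 holds 77.5% for Igfbp2 and 83.5% for the choroid plexus list, and control 3 holds 89.0% for Htra1 and 71.9% for the fibroblast list.

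Other lists were thinly represented. The astrocyte list had Gja1 and Sox9 of 14 genes, with sums of 3.04 to 16.3 normalised reads in the knockout and 9.81 to 59.2 in controls. Acta2 was the one listed gene of 12 mural markers, at 25.6, 4.08 and 26.3 normalised reads in knockouts 1, 2 and 3, against 26.5, 22.3 and 189 in controls 1, 2 and 3. Pltp was the one listed gene of 12 endothelial markers, with its highest value, 204 normalised reads, in control 2. The border macrophage list had Cd209a and Clec4n of 10 genes. Cd209a had 3.93, 3.06 and 5.06 normalised reads in knockouts 1, 2 and 3, against an even 11.8, 14.5 and 13.7 in controls 1, 2 and 3. Clec4n was higher in every knockout sample, at 6.88, 2.04 and 6.07 normalised reads, against 0, 0 and 0.978 in controls 1, 2 and 3. These 2 genes thus did not follow controls 2 and 3. The oligodendrocyte list had 0 of 12 genes. The part of other cell types in the levels of the 4 genes was not tested. Of 12 microglia markers Cx3cr1, the gene that carries the Cre cassette, was the one in the table, with 27906 to 35698 normalised reads in the knockout and 58569 to 79363 in controls. Piezo1 was not in the table, so the deletion was not checked here. Loss of Piezo1 and presence of the Cre allele cannot be told apart for any of these genes.

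Genes of the 3 pathways were all lower where they were in the table, as were 410 of its 466 genes. The counts and medians given for them include Sfrp1, Tgfbr3, Htra1 and Igfbp2. Of 69 Wnt pathway genes 3 were in it, of 63 TGF-beta and BMP pathway genes 9, and of 23 IGF pathway genes 3, with Htra1 on both of the last lists. Besides Tgfbr3, 0 of them passed the authors' adjusted p of 0.05, against 3.00% of the table. limma called 0 of the 14 genes and 0.00% of the table, with 7 at an unadjusted p under 0.05, against 52.6% of the table. From the recovered reads, edgeR called 0 of the 14 and 0.00% of the table as well. Of the 14, 11 had an unadjusted p under 0.05 in edgeR, against 52.8% of the table. DESeq2 called 4 of the 14, against 10.5% of the table, which were Sfrp1, Dkk3, Tgfbr3 and Igfbp7. The median limma log2 fold change was -3.19 for the Wnt genes, -2.02 for the TGF-beta and BMP genes and -2.02 for the IGF genes, against -1.99 for the table. Both values of -2.02 are that of Htra1 itself, and besides Htra1 and Igfbp2 the IGF genes in the table were Igfbp7 alone. Of the TGF-beta and BMP genes, 3 had no reads in any knockout library. With such genes set at a floor of 3 reads per knockout library the medians were -1.47 for that list and -1.78 for the table. Genes of these pathways outside the table were not analysed here.

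Among ligands, Tgfb3 had 0 reads in all 3 knockout samples, against 2.94, 2.91 and 6.85 normalised reads in controls 1, 2 and 3. Bmp6 had 4.92, 6.13 and 1.01 normalised reads in knockouts 1, 2 and 3, against 14.7, 57.2 and 0.978 in controls 1, 2 and 3. Bmp7 followed the same order in controls, at 6.87, 23.3 and 0.978 normalised reads, and Bmp4 stood at 2.94, 10.7 and 3.91 there. The 3 BMP ligand genes were thus highest in control 2, as were Igfbp2 and 42.2% of the lower genes. Inhbb, which encodes an activin subunit, had no reads in the knockout and 0, 0.970 and 16.6 normalised reads in controls 1, 2 and 3.

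Of receptors, the Wnt receptor gene Fzd3 had 0.983, 1.02 and 0 normalised reads in knockouts 1, 2 and 3, against 8.83, 6.79 and 13.7 in controls 1, 2 and 3. It was the most even of the Wnt genes between controls, with a limma log2 fold change of -2.71 (SE 0.74, adjusted p = 0.0533). Among secreted modulators, Dkk3, of the Dickkopf family, had 0, 1.02 and 1.01 normalised reads in knockouts 1, 2 and 3, against 2.94, 7.76 and 89.0 in controls 1, 2 and 3. The activin antagonist gene Fst had no reads in the knockout and had reads in control 3 alone, at 23.5 normalised reads. Dkk3, Fst, Inhbb and Igfbp7 were all highest in control 3, as were Htra1, Sfrp1 and 54.6% of the lower genes. Id3, a transcriptional target of BMP signalling, had 11.8, 16.3 and 24.3 normalised reads in knockouts 1, 2 and 3, against 13.7, 40.7 and 73.4 in controls 1, 2 and 3, and its groups overlapped.

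**Figure D4:**
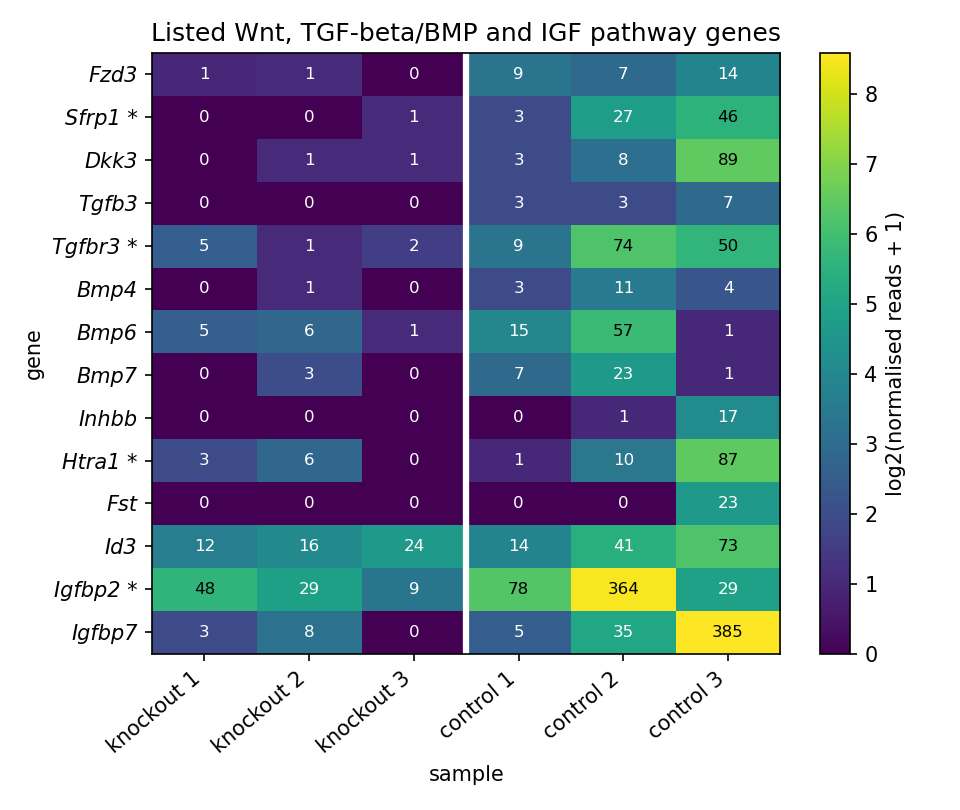
Normalised reads (numbers in the cells, rounded) of the 14 genes of the Wnt, TGF-beta and BMP, and IGF lists that were in the table, in the 3 knockout samples and the 3 controls, coloured by log2(normalised reads + 1). Asterisks mark Sfrp1, Tgfbr3, Htra1 and Igfbp2. Among controls, Igfbp2 and the BMP ligand genes are highest in control 2 and Igfbp7, Dkk3 and Htra1 in control 3.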

How the data were processed

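Poly(A) RNA of isolated microglia was sequenced as paired reads of 150 bases in 6 samples, which were grouped by their titles. Tools named in the submitters' processing notes, without their order, are HISAT2, RSEM 1.2.30, cutadapt 1.11, R 3.6.1 and DESeq2, with the build GRCm38. The authors deposited a normalised signal value for each gene in each sample. Every value was a whole multiple of 1 read in its sample (100% whole, tolerance 1e-06), with size factors of 0.979 to 1.03. The log2 fold change, the p-value and its adjusted form were also deposited by the authors. Their adjusted p corresponds to 19107 genes, while the table holds 466 selected ones, so library depth is unknown and p-values on these genes are lenient. Recovered reads in the table ranged from 49643 to 180760 per sample.

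All 466 genes were fitted with limma 3.58.1 in R 4.3.3 on log2(value + 1) with a mean-variance trend, no filter and Benjamini-Hochberg adjustment, at a threshold of 0.05. As alternatives, recovered reads were tested with DESeq2 1.42.0 and edgeR 4.0.16 (quasi-likelihood), both chosen after seeing the data. All 3 were checked on simulated data. Sample and gene intervals used scipy 1.17.1. Genes named are the 4 members, pathway list genes in the table, the most abundant markers, and for each member up to 4 of the most correlated genes. Some items are not reported here. The members and lists were chosen with earlier results of these data known. Coordinates of the 4 genes equal those in GENCODE M21. The sources used here do not say if counting was stranded.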

Additional observations from a re-analysis of the deposited data

How the results depend on the processing

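Igfbp2 kept its direction and its side of the threshold in all 15 alternatives and Htra1 in 14. Sfrp1 and Tgfbr3 kept their direction in all 15. With a pseudocount of 0.5 they passed, at -4.51 and -3.57 (limma adjusted p = 0.0441 for each), among 120 calls over the table, of which 2 were among the 4 genes. DESeq2 on the recovered reads, chosen after seeing the data, called the same 2 of the 4, at -6.14 and -4.05, among 49 calls. These log2 fold changes match the deposited ones, and the adjustment covers only genes selected by the authors' p-value, so this is not separate support. DESeq2 gave no adjusted p for 19 genes. Over these alternatives, including those that leave out libraries, the adjusted p ranged from 0.0134 to 0.245 for Sfrp1 and from 0.0125 to 0.389 for Tgfbr3. With 1 library left out in turn, calls over the table ranged from 0 to 196 (196 without control 1, 36 without control 3) and among the 4 genes from 0 to 2. The log2 fold change ranged from -4.85 to -3.06 for Sfrp1, from -4.22 to -2.76 for Tgfbr3, from -3.34 to -0.60 for Htra1 and from -2.79 to -0.99 for Igfbp2. Without controls 2 and 3 together, Htra1 reversed to 0.62 and 54 genes were called. The cause of these changes was not tested. A replicate block gave 4 calls over the table and 0 among the 4 genes. Deviations of same-numbered samples correlated at -0.04, -0.04 and 0.07, and no sample correlated best with its own number. Such correlations over selected genes cannot settle if the samples were paired. Except for Igfbp2 in control 2, each value of the 4 genes rests on fewer than 100 reads.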

Other observations

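Other genes of growth factor signalling were noticed in the table after their values were seen, and they are given as values with no test. Sulf1, a heparan sulfatase gene whose product alters ligand binding to heparan sulfate, had 14.7, 18.4 and 8.09 normalised reads in knockouts 1, 2 and 3, against 39.2, 235 and 37.2 in controls 1, 2 and 3. The glypican gene Gpc4, a heparan sulfate proteoglycan, had 1.97, 7.15 and 4.05 normalised reads in knockouts 1, 2 and 3, against 5.89, 29.1 and 54.8 in controls 1, 2 and 3. Tsku, which encodes a secreted modulator of TGF-beta and Wnt ligands, had 2.95, 3.06 and 3.04 normalised reads in knockouts 1, 2 and 3, against 4.91, 9.70 and 22.5 in controls 1, 2 and 3.

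Cthrc1, Cpz and Wisp2, 3 genes of secreted proteins linked to Wnt signalling, had no reads in any knockout sample. In controls 1, 2 and 3 Cthrc1 had 3.92, 3.88 and 7.83 normalised reads, Cpz 2.94, 3.88 and 7.83, and Wisp2 0.981, 1.94 and 10.8. Grb10, an adaptor that binds insulin and IGF receptors, had 0, 5.11 and 0 normalised reads in knockouts 1, 2 and 3, against 5.89, 25.2 and 63.6 in controls 1, 2 and 3. In the fibroblast growth factor pathway, the ligand gene Fgf10 was highest in control 3, at 22.5 normalised reads, and the receptor gene Fgfr2 in control 2, at 28.1.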
